A study of Mus musculus with 10 samples.

Results

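Sprr1a, Gap43, Basp1, Marcks, Marcksl1, Cap1, Dpysl3 and Dpysl5 are 8 of the 34254 genes counted in single mouse retinal ganglion cells (RGCs), and all encode proteins known from growth cones or from nerve cells that regrow an axon. They were selected on their change between injured and uninjured libraries of these same data, together with their known roles, so the changes of these 8 genes are given as a description and carry no test. Counts are unique molecular identifiers (UMIs), each standing for 1 captured mRNA molecule, and levels are CPM, the counts of a gene scaled to a common total. Levels of a gene in whole samples use TMM factors. Levels in groups of cells within a sample and sums over marker lists use plain totals without these factors. The measurements below are the level of each gene in every sample, its spread over cells, and how the genes vary together within cells.

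The study profiled RGCs from uninjured eyes and from eyes 2 weeks after optic nerve crush (ONC), an injury that severs RGC axons behind the eye, and deposited 6 uninjured and 4 injured libraries. By the labels, all mice were wild-type 129S1/SvImJ animals of both sexes, 12 weeks old (P84), and no other treatment of either group is named. Each batch pooled 10 retinas, RGCs were captured by Thy1 immunopanning after macrophages had been depleted, and 6000 cells were loaded per batch. The comparison asks how RGC transcripts differ after the axon is injured. The sample labels name a v3 reagent kit, NovaSeq sequencing and Cell Ranger 7.0.1, while the methods of the paper name a v2 kit, a HiSeq instrument, an early CellRanger version and depletion of amacrine cells as well, and the series text adds sorting by FACS; the files do not settle which holds. Because animals were pooled, a library is a batch of retinas and not a mouse.

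The uninjured libraries held 98, 103, 363, 651, 267 and 201 cells, and their total counts ran from 2839693 to 23180399 UMIs with a median of 5180793. Injured libraries 1 to 4 held 338, 273, 527 and 471 cells, with totals from 4698799 to 8860536 UMIs. Every one of the 1683 uninjured and 1609 injured cells carried a UMI of each of 4 marker genes of RGCs (Rbpms, Tubb3, Sncg, Slc17a6), which was a condition of the authors' cell selection and is therefore no separate check of their label. UMIs of 3 or more markers of another retinal, glial or vascular class were absent from 823 uninjured and 1217 injured cells. Uninjured cells were deeper: the median UMIs per cell ran from 20437 to 34337 in uninjured and from 11257 to 14695 in injured libraries. The composition of the RNA differed too, since Malat1, a nuclear RNA, made up 1.72% to 4.88% of UMIs in uninjured and 6.09% to 8.01% in injured libraries, and mRNAs of ribosomal proteins 3.08% to 4.08% and 4.78% to 5.92%; the part of either in the results was not tested. Because of the depth, shares of cells, spread and co-expression were computed after every cell had been thinned at random to 5000 UMIs, which kept 1674 uninjured and 1572 injured cells.

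Several libraries stood apart. Injured 3 and Injured 4 shared 421 cell barcodes, and their summed counts differed no more than sampling noise (a ratio to noise of 0.954), so they were averaged as 1 sample, named Injured 3/4, and the injured group has 3 samples and 1188 distinct cells. Any other 2 libraries had at most 1 barcode in common. Libraries with neighbouring numbers (1 with 2, 3 with 4 and 5 with 6 among the uninjured, and 1 with 2 among the injured) differed by 1.44 to 2.11 times the sampling noise, against 3.46 to 15.9 times for the remaining pairs of libraries within a condition. Cells with a UMI of mCherry, a fluorescent protein gene in the feature list whose source the labels do not give, made up 7.99% of Injured 1, 15.0% of Injured 2, 86.0% of Injured 3 and 84.3% of Injured 4, and 0 of the uninjured cells. In its regeneration experiments the paper injected viral vectors that express mCherry into the eye 2 weeks before ONC. Its methods name no vector for the uninjured and injured single-cell libraries. If one was given, its part cannot be told apart from that of the injury. Xist, which is transcribed in female cells, gave a UMI in 62.1% of Injured 1 cells and 67.4% of Injured 2 cells, while no other library exceeded 0.569%. The labels give both sexes for all libraries, which the Xist counts of the libraries other than Injured 1 and 2 do not match. The part of sex in the results was not tested. The labels do not say that libraries come from separate animals, so p-values measure the spread between these samples, which may be technical.

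A growth cone is the motile tip of an axon, where the membrane is pushed forward by actin filaments and steered by signals that act on actin and microtubules. Gap43, Basp1, Marcks and Marcksl1 encode acidic, lipid-anchored proteins of the inner face of the membrane that bind calmodulin or the lipid PIP2 and are targets of protein kinase C. Cap1 recycles actin monomers, Dpysl3 and Dpysl5 belong to the collapsin response mediator proteins (CRMPs) that link semaphorin signals to microtubules and actin, and Sprr1a, best known from the cornified layer of skin, is induced in axotomised neurons.

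Sprr1a encodes a small proline-rich protein of the cornified envelope and lies on the reverse strand of GRCm39 chromosome 3 at chr3:92390424-92393208 (ENSMUSG00000050359.9). In the 6 uninjured libraries it gave 0 UMIs in 4 libraries and 1 UMI each in Uninjured 4 and Uninjured 5. In the injured samples its level was 667 CPM in Injured 1, 988 CPM in Injured 2 and 777 CPM in Injured 3/4. All 3 injured samples were high, all 6 uninjured libraries were at or near 0, and the groups did not overlap. Means were 0.0375 ± 0.0736 CPM (SD, n = 6) and 811 ± 163 CPM (SD, n = 3). In the libraries at 0, 3 counts of the total would stand for 1.06 CPM in Uninjured 1, 0.876 CPM in Uninjured 2, 0.237 CPM in Uninjured 3 and 0.642 CPM in Uninjured 6, so a level below these may have been missed. Summed over samples, with Injured 3 and 4 counted as their average, 2 of 52479590 uninjured UMIs and 13999 of 18201404 injured UMIs were Sprr1a. The ratio was 20181 with a 95% exact counting interval of 5586 to 166661. This interval covers counting error only, and its width comes from the 2 uninjured UMIs.

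Windows from 250 bases before to 50 bases after the start were taken from the RefSeq promoter table (build GRCm38.p6). They cover 5 of the 8 genes, Sprr1a, Basp1, Marcksl1, Cap1 and Dpysl5. That table holds none for Gap43 or Marcks, and none was used for Dpysl3, whether or not the table holds one. The start used there lies within 34 bases of the start of the Gencode gene for Sprr1a, Cap1 and Dpysl5, but 1086 bases inside the gene for Marcksl1 and 1131 bases inside it for Basp1. Both strands were searched for TGANTCA, the motif bound by AP-1 dimers of the Jun, Fos and Atf families, for TGACGTCA, the related CRE motif, and for GGGCGG, the GC box. The windows of Sprr1a and Marcksl1 are shown because these genes had the largest rises among those with a window, with capitals marking every TGANTCA and GGGCGG match (CCGCCC is GGGCGG on the other strand), written 5′ to 3′ on the strand of the gene. By exact match they lie in GRCm39 at chr3:92393139-92393438 (reverse strand) and chr4:129407124-129407423 (forward strand).
Sprr1a: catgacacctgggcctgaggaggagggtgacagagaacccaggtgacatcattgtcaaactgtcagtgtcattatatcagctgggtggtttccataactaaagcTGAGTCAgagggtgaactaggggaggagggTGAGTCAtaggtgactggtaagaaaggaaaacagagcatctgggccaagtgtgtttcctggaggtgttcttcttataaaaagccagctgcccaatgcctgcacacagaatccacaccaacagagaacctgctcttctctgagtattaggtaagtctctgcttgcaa
Marcksl1: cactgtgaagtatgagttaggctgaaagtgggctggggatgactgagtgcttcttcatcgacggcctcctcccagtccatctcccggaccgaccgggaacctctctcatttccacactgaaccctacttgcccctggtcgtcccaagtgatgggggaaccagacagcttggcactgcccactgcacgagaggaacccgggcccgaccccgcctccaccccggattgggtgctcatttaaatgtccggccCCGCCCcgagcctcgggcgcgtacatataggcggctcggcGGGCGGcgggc
The Sprr1a window held 2 TGANTCA matches, whose first bases are 146 and 116 bases before the start, and no match to the other motifs. Among 32544 promoter windows of different sequence, 7.79% held TGANTCA and 0.464% held 2 or more matches, 1.80% held TGACGTCA and 35.9% held GGGCGG. The Marcksl1 window held 2 GGGCGG matches, Basp1 had 4, of which 2 overlap, Dpysl5 had 1 and Cap1 had none, and none of these 4 windows held TGANTCA or TGACGTCA. Base composition was 48.7% G or C in the Sprr1a window, 57% in Cap1, 61% in Dpysl5, 63.7% in Marcksl1 and 78% in Basp1, against a median of 53% over all windows. A match describes letters only, and binding of a factor was not measured.

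Gap43 (GRCm39 chr16:42068805-42161086, reverse strand) encodes the growth-associated membrane protein that binds calmodulin. Its level in the uninjured libraries was lowest at 320 CPM, had a median of 378 CPM and was highest at 493 CPM, and it was 2649, 2726 and 2358 CPM in Injured 1, Injured 2 and Injured 3/4. The injured samples were high without exception and close together, with no overlap between groups. The means of 397 ± 71.8 CPM (SD, n = 6) and 2578 ± 194 CPM (SD, n = 3) differ by a fitted log2 fold change of 2.70 (SE 0.17). Gap43 was thus already present in uninjured RGCs, unlike Sprr1a.

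Basp1 (chr15:25363350-25414981, reverse strand) encodes another calmodulin-binding protein anchored to the inner membrane. It ranged from 1082 CPM through a median of 1400 CPM to 1527 CPM in the uninjured libraries and was 1526, 1618 and 1190 CPM in the injured samples. The groups overlapped: Injured 3/4 sat among the lower uninjured libraries, Uninjured 3 and 4, and Injured 1 beside the highest uninjured one. The log2 fold change was 0.12 (SE 0.18), from means of 1329 ± 195 CPM (SD, n = 6) to 1445 ± 225 CPM (SD, n = 3). Its sign turned in the alternative analyses, from -0.04 to 0.29, and a Gencode gene on the same strand, Gm48956, overlaps it over 721 bases.

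Marcks (chr10:37009239-37014942, reverse strand) and Marcksl1 (chr4:129406288-129409778, forward strand) encode paralogous proteins that cross-link actin at the membrane and release it when phosphorylated by protein kinase C. Marcks was at 380 CPM in the lowest uninjured library, 461 CPM at the median and 650.03 CPM in the highest, and at 270.3, 303 and 193 CPM in Injured 1, Injured 2 and Injured 3/4. Every injured sample lay below every uninjured one, and the highest uninjured values were those of Uninjured 5 and 6. The mean fell from 493 ± 115 CPM (SD, n = 6) to 255 ± 56.3 CPM (SD, n = 3), a log2 fold change of -0.95 (SE 0.23). Marcksl1 went the other way. It was lowest at 24.1 CPM, had a median of 38.1 CPM and reached 86.8 CPM in the uninjured libraries, and it was at 170.0, 181 and 207 CPM in the injured samples. Uninjured 5 and 6, at 73.9 and 86.8 CPM, stood above the other uninjured libraries for this gene too, and still below each injured sample. The means were 48.2 ± 25.9 CPM (SD, n = 6) and 186 ± 18.9 CPM (SD, n = 3), with a log2 fold change of 1.96 (SE 0.35). The fall of one paralogue and the rise of the other held in each of the 3 injured samples.

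Cap1 (chr4:122752832-122779903, reverse strand) encodes the cyclase-associated protein that binds actin monomers and, with cofilin, takes filaments apart. The uninjured libraries lay between 36.2 and 58.8 CPM with a median of 46.5 CPM, and the injured samples were at 66.4, 66.7 and 117 CPM. The groups did not overlap, Injured 1 and 2 lay just above the highest uninjured library, and Injured 3/4 stood well above both. From 46.5 ± 8.10 CPM (SD, n = 6) to 83.3 ± 29.0 CPM (SD, n = 3), the log2 fold change was 0.85 (SE 0.20), and without Injured 3 and 4 it was 0.54, so part of the rise rests on these libraries. The end of Cap1 overlaps Ppt1 on the opposite strand over 2117 bases, and both genes were counted; Ppt1 changed in the other direction, as given with the lipid enzymes further on.

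Dpysl3 (chr18:43454049-43571532, reverse strand), also known as CRMP4, encodes a protein that binds actin filaments and microtubules. It ranged from 91.1 CPM through a median of 126 CPM to 138 CPM in the uninjured libraries and was 275, 249.7 and 208 CPM in the injured samples. All injured samples lay above all uninjured ones, among which Uninjured 5 and 6 were low. The log2 fold change was 1.06 (SE 0.16), from 117 ± 19.8 CPM (SD, n = 6) to 244 ± 33.8 CPM (SD, n = 3). Dpysl5 (chr5:30868908-30956719, forward strand), or CRMP5, encodes a protein that counteracts Dpysl2 in neurite growth. Its uninjured values were 45.4 CPM at the lowest, 72.7 CPM at the median and 81.3 CPM at the highest, and its injured values were 78.3, 69.8 and 52.9 CPM. The groups lay over each other, and Uninjured 5 and 6 were again low. The log2 fold change was -0.01 (SE 0.21), from 67.3 ± 15.4 CPM (SD, n = 6) to 67.0 ± 12.9 CPM (SD, n = 3), and alternative analyses put it between -0.32 and 0.21. A Gencode gene on the same strand that was counted too, Gm42764, overlaps Dpysl5 over 1446 bases.

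**Figure D1:**
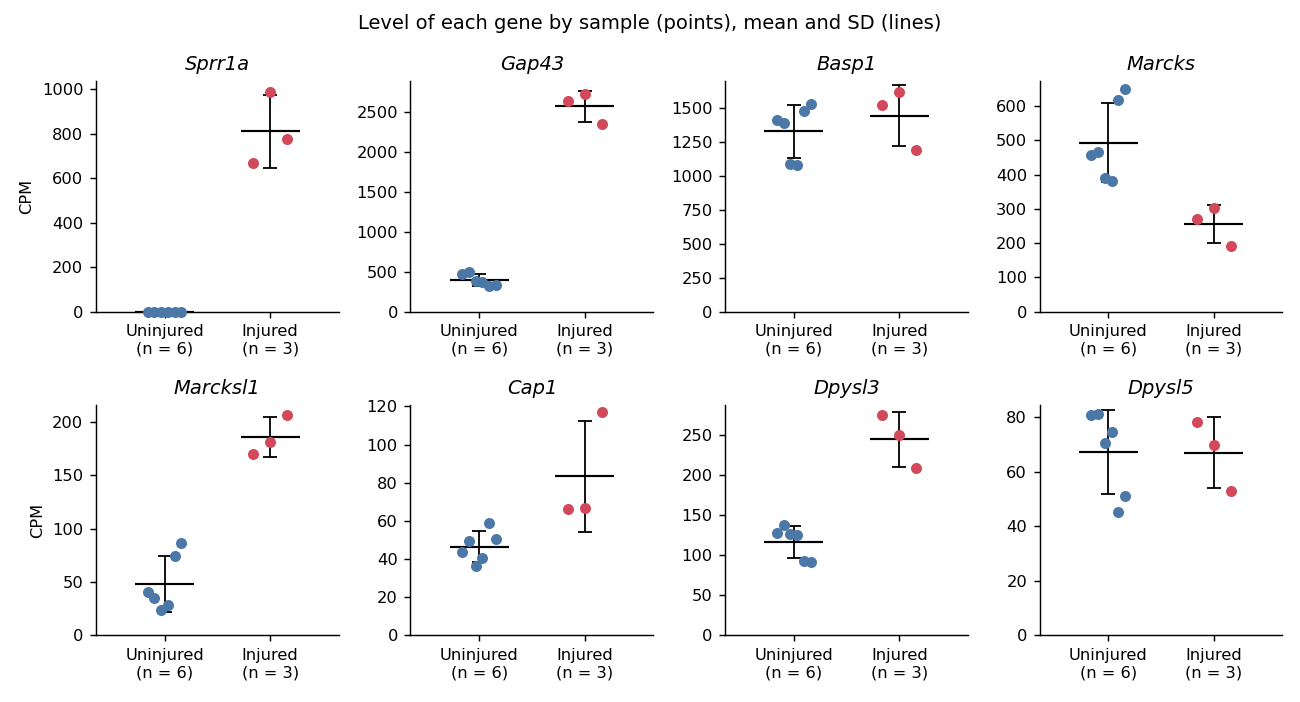
Level of each of the 8 genes in CPM (y axis) in the 6 uninjured libraries and the 3 injured samples; points are samples, long lines are means and error bars are 1 SD. Sprr1a, Gap43, Marcksl1, Cap1 and Dpysl3 are higher in all injured samples, Marcks is lower in all, and Basp1 and Dpysl5 overlap.

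All 8 genes passed the filter on low counts, Sprr1a only through the injured samples. In the edgeR fit over 14234 genes, 6 of the 8 were past an adjusted p of 0.05, 5 higher and 1 lower, and 6 had groups that did not overlap, where 44% of all genes tested were past that threshold, 21.3% higher and 22.7% lower, and 42.9% had groups that did not overlap. Since the genes were chosen on this contrast, nothing is read from these counts. Without Injured 3 and 4, the log2 fold change was 2.78 for Gap43, -0.76 for Marcks, 1.90 for Marcksl1 and 1.19 for Dpysl3, and Sprr1a had a mean of 838 CPM. With libraries 1 to 4 of each condition, that is without Uninjured 5 and 6, it was 2.54 for Gap43, -0.83 for Marcks, 2.62 for Marcksl1 and 0.85 for Dpysl3. This setting also counts Injured 3 and 4, which share cells, as separate samples. The injured group was not fitted without both Injured 1 and 2, the libraries with Xist, since this would leave 1 sample.

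The share of cells with a UMI follows the same change on which the genes were chosen, so its differences between the conditions are a description too. After thinning to 5000 UMIs, 0 of 1674 uninjured cells had a Sprr1a UMI, while in the injured samples 30.4%, 25.9% and 25.0% of cells had one (27.1% ± 2.92, SD, n = 3). At full depth 2 of 1683 uninjured cells had a UMI, and the injured share was 35.6% ± 3.75 (SD, n = 3). For the uninjured libraries at 0, 3 cells of the total would be 3.06%, 2.91%, 0.826% and 1.49% of the cells of Uninjured 1, 2, 3 and 6. The uninjured RGCs of the other libraries are the only cells that could show free Sprr1a RNA, and their libraries were captured apart from the injured ones, so free RNA in the injured libraries was not measured.

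Cells with a Sprr1a UMI were deeper cells before thinning, in part by construction, since a UMI is found more readily in a deeper cell. Their median was 20296 UMIs against 12012 for cells without one in Injured 1, 21257 against 12390.5 in Injured 2, 21512 against 12087 in Injured 3 and 16850 against 9538 in Injured 4. The mean level depends on these cells: with each cell thinned to 5000 UMIs, so that cells weigh alike, the injured mean was 446 CPM in place of 811 CPM. The summed level of a library therefore leans towards its deeper cells.

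Sprr1a counts were very uneven among injured cells. The variance over the mean (Fano factor) of its thinned counts was 14.7, 21.2 and 23.2 in Injured 1, Injured 2 and Injured 3/4, while the 200 genes of most similar mean had a median Fano factor of 1.498 (at the median over samples), and all of those genes lay below Sprr1a in every injured sample. A factor of 1 is what random sampling of molecules from like cells would give. The 10% of cells richest in Sprr1a held 74.8% to 85.6% of its UMIs. The highest count of a cell was 40, 64, 65 and 55 thinned UMIs in Injured 1 to 4, in libraries where most cells had none.

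Gap43, in contrast, was found in nearly all injured cells. Its share of cells with a UMI rose from 80.5% ± 5.29 (SD, n = 6) to 98.9% ± 0.606 (SD, n = 3), and its median thinned count per cell from 2 to 11 UMIs. More than 5 UMIs, a limit that at most 10% of the cells of any uninjured library passed, were found in 3.97% ± 3.45 (SD, n = 6) of uninjured and 78.1% ± 3.17 (SD, n = 3) of injured cells. The highest thinned count of a cell ran from 5 to 12 UMIs over the uninjured libraries, and the medians of the injured samples were 11, 11 and 10, so the cells of the 2 conditions overlap. Its Fano factor rose from a median of 1.33 to 4.85, above 81.6% of the genes of similar mean, whose median was 2.62. The richest 10% of injured cells held 23.1% of Gap43 UMIs, at the median over samples.

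The other genes were less uneven. Marcksl1 was found in 20.9% ± 9.004 (SD, n = 6) of uninjured and 54.2% ± 5.36 (SD, n = 3) of injured cells, and more than 1 UMI in 3.80% and 28.2%. Dpysl3 rose from 44.3% ± 6.61 (SD, n = 6) to 64.4% ± 4.64 (SD, n = 3) of cells and Cap1 from 21.1% ± 3.72 (SD, n = 6) to 32.1% ± 7.72 (SD, n = 3). Both rises were in the sense of their CPM. Marcks was found in 83.0% ± 6.63 (SD, n = 6) of uninjured and 63.6% ± 6.32 (SD, n = 3) of injured cells, and more than 6 UMIs in 4.66% and 0.132%. The latter share ran from 0.772% in Uninjured 4 to 9.13% in Uninjured 5 and was at most 0.299% in injured samples. Basp1 was found in 99.1% and 99.3% of cells. Dpysl5 showed what depth does to such a share: at full depth it fell from 76.4% ± 13.6 (SD, n = 6) to 56.0% ± 8.44 (SD, n = 3), and at equal depth it was 27.9% ± 7.57 (SD, n = 6) and 27.2% ± 5.84 (SD, n = 3). The Fano factors of these 6 genes in injured cells lay between 0.975 for Cap1 and 1.71 for Basp1, at the median over samples, close to their uninjured medians of 0.976 for Cap1 to 1.71 for Basp1.

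**Figure D2:**
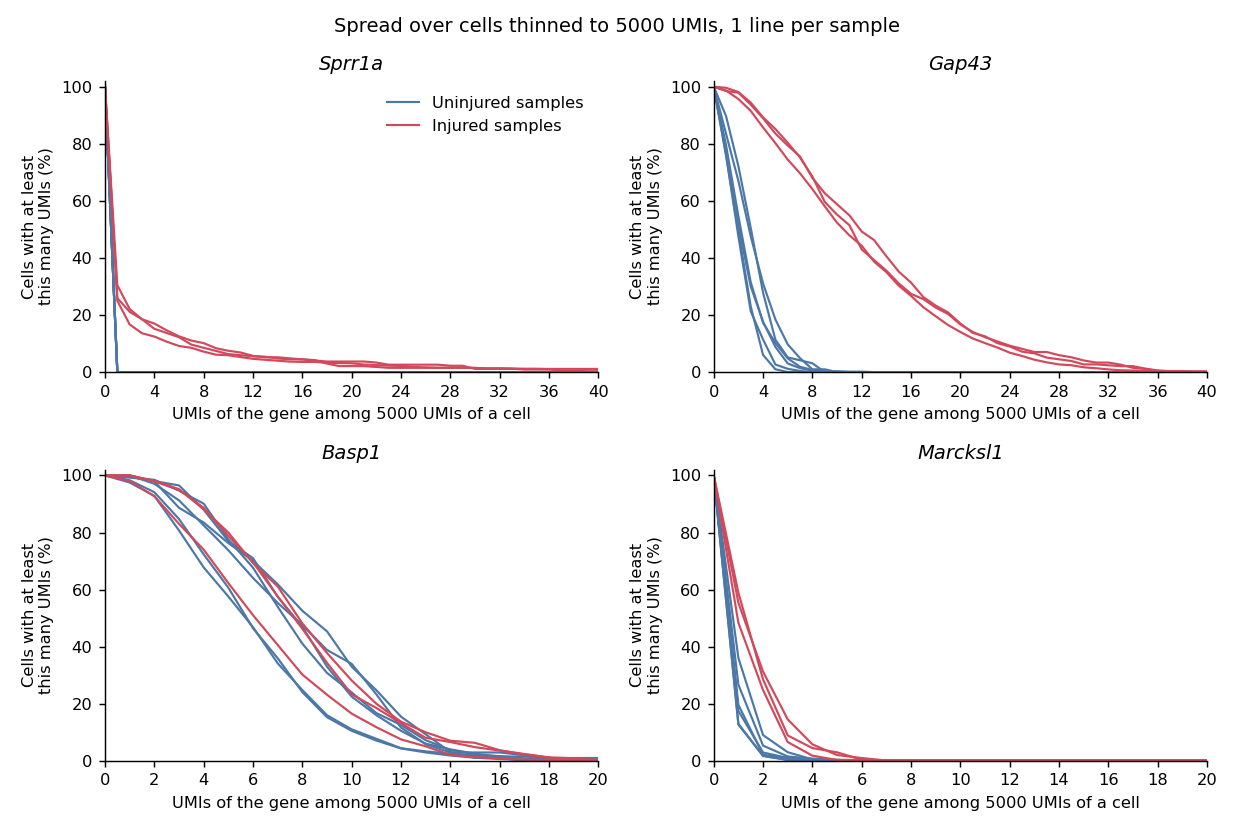
Share of cells (y axis, percent) with at least the number of UMIs on the x axis, after thinning to 5000 UMIs per cell, for Sprr1a, Gap43, Basp1 and Marcksl1; lines are samples, coloured by condition. Sprr1a drops to 30.4% or less of injured cells at 1 UMI and has a long tail, the Gap43 curves of injured samples lie to the right of the uninjured ones over most of their length, and the Basp1 curves lie over each other.

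Injured cells were divided by their thinned Sprr1a count into none (0 UMIs), low (1 to 4) and high (5 or more). In Injured 1 the classes held 69.6%, 15.8% and 14.6% of cells, in Injured 2 74.1%, 12.2% and 13.7%, and in Injured 3/4 75.0%, 14.3% and 10.7%. High cells, fewer than 1 in 6 in each sample, held 86.5%, 88.8% and 87.2% of Sprr1a UMIs. The boundary does not fall in a gap of the distribution: 13, 13, 12 and 16 cells of Injured 1 to 4 had 3 or 4 UMIs and 12, 11, 12 and 9 had 5 or 6. Before thinning, the median UMIs of none, low and high cells were 12647, 20805 and 23064 in Injured 1, 12676.5, 16928 and 26403 in Injured 2, and 11628.5, 17659.5 and 25690.5 in Injured 3/4. The classes therefore differ in cell depth, and its part in what follows was not tested beyond the thinning.

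Gap43 rose with the Sprr1a class in each sample. It was at 2194 CPM of the thinned counts in none, 2792 in low and 3514 in high cells of Injured 1. The values were 2116, 2679 and 3908 CPM in Injured 2 and 2036, 2543 and 3422 CPM in Injured 3/4. High cells were above none in 3 of 3 samples, with a median log2 difference of 0.75, from 0.68 to 0.89. Cells with no Sprr1a UMI after thinning, some of which held one before it, still had more Gap43 than the highest uninjured library. The other 6 genes had smaller median log2 differences: 0.19 for Basp1, 0.11 for Marcks, -0.09 for Marcksl1, -0.15 for Cap1, 0.02 for Dpysl3 and 0.22 for Dpysl5. Cap1 and Dpysl5 differed between samples: in the high cells of Injured 3/4 Cap1 was higher, with a log2 difference of 0.91, while that of Dpysl5 was 0.22 in Injured 1, 0.68 in Injured 2 and -0.45 in Injured 3/4.

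Atf3, a stress-induced transcription factor known to be upstream of Sprr1a in injured sensory neurons, was at 604, 921 and 1086 CPM in none, low and high cells of Injured 1, at 579, 909 and 1054 CPM in Injured 2, and at 531, 825 and 1110 CPM in Injured 3/4. Cells of the class none were thus far above the uninjured level of Atf3 too, whose highest library was at 2.51 CPM. These classes were chosen after the values had been seen, as were the genes compared over them.

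**Figure D3:**
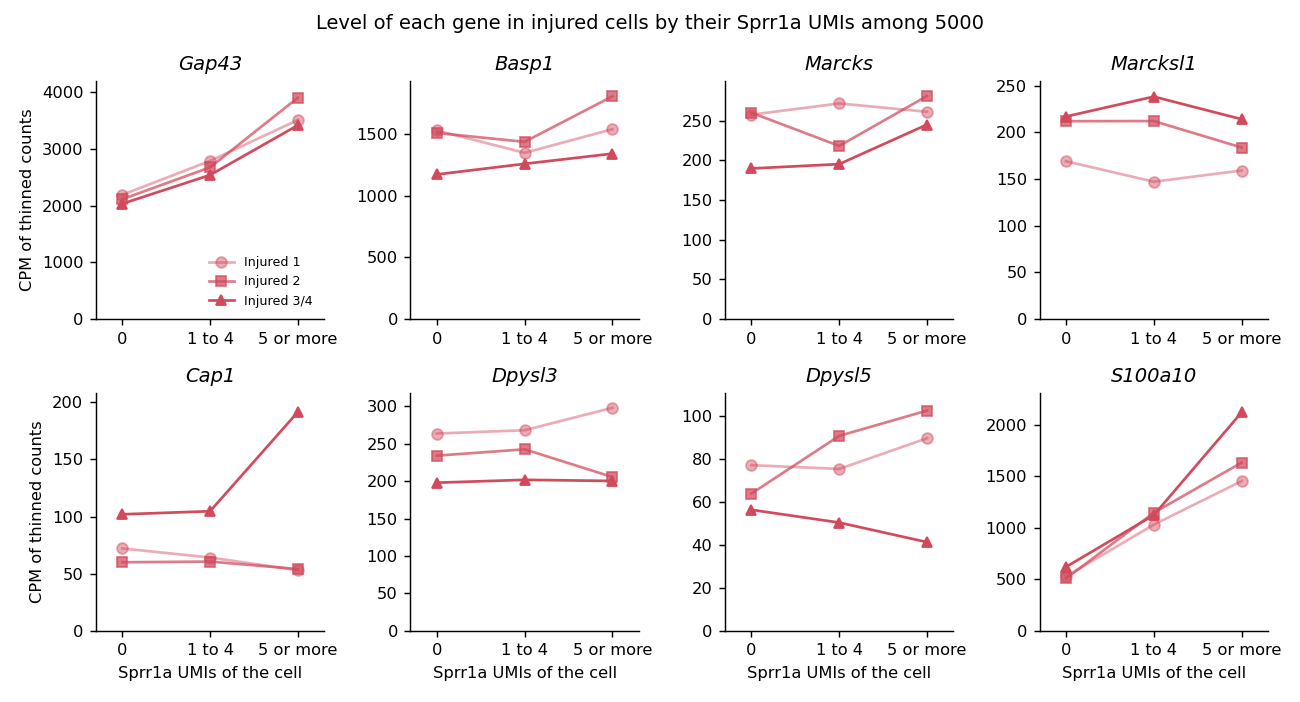
Level of 7 growth cone genes and S100a10 in CPM of thinned counts (y axis) in injured cells with no, few (1 to 4) and many (5 or more) Sprr1a UMIs (x axis); points joined by a line belong to 1 of the 3 injured samples. Gap43 and S100a10 rise from none to high cells in each sample.

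Within cells of a sample, the growth cone genes varied together only weakly. Spearman correlations were computed over the thinned cells of each library, which share 1 capture and 1 depth, and are given as the median over samples. Of 28 pairs in injured cells, 6 had a median above 0.1, 22 lay between -0.1 and 0.1 and 0 lay below -0.1, and 11 had the same sign in all 3 samples. In sparse counts sampling of molecules pulls correlations towards 0, so a value near 0 is no measure of independence.

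The 3 strongest pairs all held Gap43. Sprr1a with Gap43 had a median of 0.279 (0.270 to 0.329), Gap43 with Basp1 0.278 (0.191 to 0.373) and Gap43 with Marcksl1 0.243 (0.243 to 0.321). Next came Basp1 with Marcks at 0.167, Basp1 with Marcksl1 at 0.123 and Gap43 with Dpysl3 at 0.107. The lowest value was -0.0675, for Sprr1a with Marcksl1, and is close to 0.

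In uninjured cells, where Sprr1a gives no pair, 21 pairs could be computed. Of these, 3 had a median above 0.1, all with Basp1: Basp1 with Marcks at 0.274, with Gap43 at 0.242 and with Marcksl1 at 0.166. Marcks with Dpysl5 was at -0.105, the other 17 lay between, and 4 pairs had the same sign in all 6 samples. Gap43 with Basp1 ran from 0.0587 to 0.301 in uninjured and from 0.191 to 0.373 in injured samples, ranges that overlap, while Gap43 with Marcksl1 was at 0.0466 (-0.0325 to 0.263) in uninjured and 0.243 in injured cells, with ranges that overlap. Differences between the conditions were not tested.

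**Figure D4:**
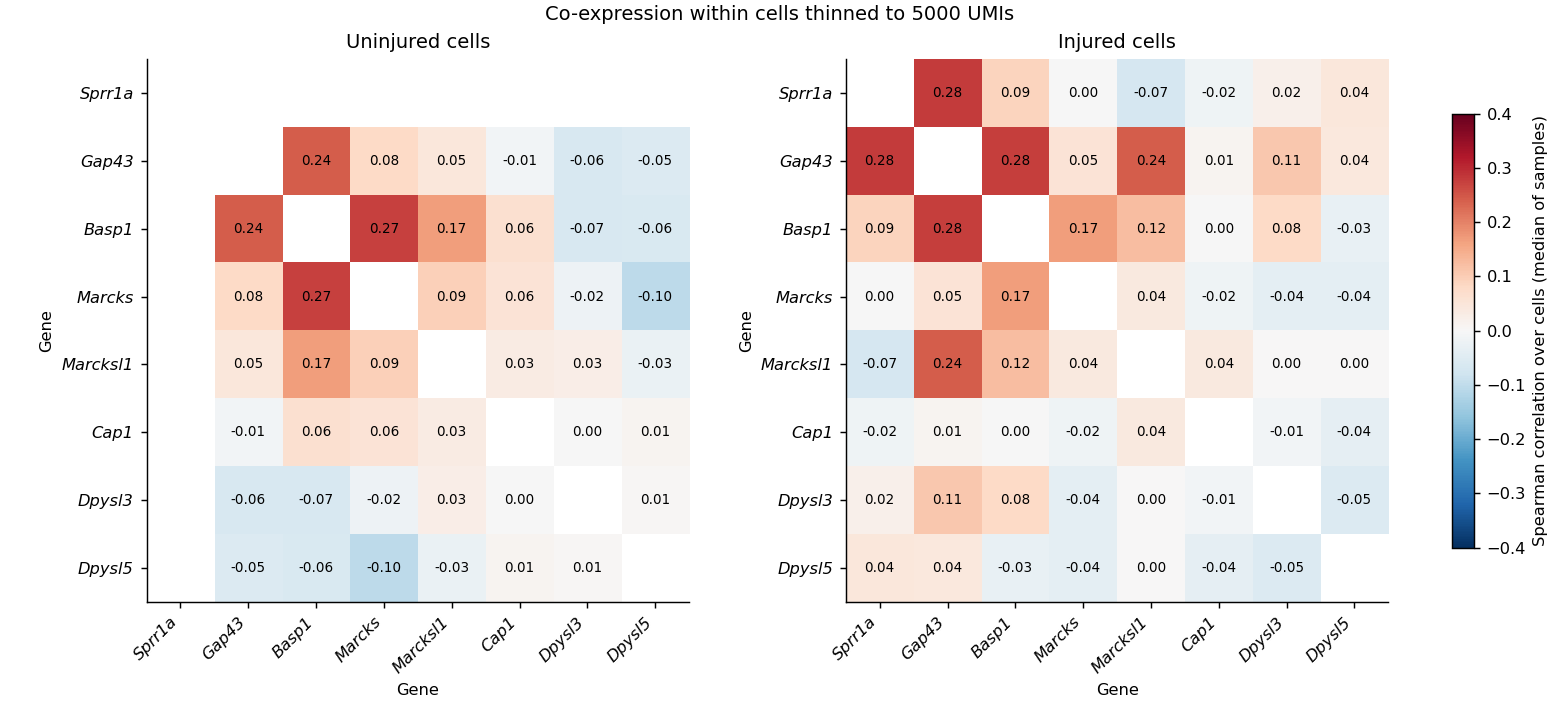
Spearman correlation over cells thinned to 5000 UMIs for each pair of the 8 genes, as the median over the 6 uninjured samples (left) and the 3 injured samples (right); the colour scale runs from -0.4 to 0.4. Pairs of Sprr1a are blank in uninjured cells, and the highest injured values lie along Gap43 and Basp1.

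The genes most like Sprr1a were sought among 3746 genes with a UMI in at least 20% of the cells of every injured library. S100a10, a calcium-binding adaptor of the membrane, was first with a median correlation of 0.510. It was followed by Mmp16 at 0.480, Tubb3 at 0.452, B2m at 0.444, H2-K1 at 0.416, Clu at 0.402, Sez6l at 0.394, Esd at 0.378, Tmsb4x at 0.375 and mt-Co1 at 0.369. These include a neuronal tubulin, both chains of a class I major histocompatibility molecule and the actin-monomer binder thymosin beta 4. Mmp16 fell to 0.172, Sez6l to 0.2305 and mt-Co1 to 0.245 in Injured 3/4, so these genes were less alike there. Gap43 was 47th, Atf3 28th at 0.315, Basp1 620th, Ecel1 1158th, Jun 1535th, Sox11 1646th and Marcksl1 2943rd, although most of them are counted among genes of axon regeneration. At the far end were Cntnap2 at -0.489, Scg2 at -0.408, Hs6st3 at -0.385, Ptprd at -0.384 and Ebf3 at -0.367, although Scg2 was only at -0.113 in Injured 3/4.

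S100a10 was picked by its correlation with Sprr1a over these cells, so its rise over the Sprr1a classes follows from that choice and shows only its size. It was at 528, 1030 and 1453 CPM in none, low and high cells of Injured 1, 508, 1145 and 1632 CPM in Injured 2, and 620, 1123 and 2120 CPM in Injured 3/4. Unlike Sprr1a it was present before injury. Its mean was 373 ± 93.3 CPM (SD, n = 6) in uninjured libraries and 978 ± 101 CPM (SD, n = 3) in injured samples, with a log2 fold change of 1.39 (SE 0.21, edgeR adjusted p = 2.02e-04) and all injured samples above all uninjured ones. B2m and H2-K1, which were at 6.58 and 6.78 CPM before injury, were at 238 and 253 CPM after it, log2 fold changes of 5.21 (SE 0.17) and 5.18 (SE 0.17). Cntnap2, whose correlation with Sprr1a was lowest, was itself higher after injury, at 1533 and 4779 CPM with a log2 fold change of 1.64. Its direction over injured cells was thus opposite to its direction with injury.

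Over the same injured cells, Gap43 was most like Tmsb4x (0.596), Stmn2 (0.553), Jpt1 (0.527), Tmsb10 (0.515) and Tuba1a (0.508). All but Jpt1 encode abundant proteins of actin or microtubules. Atf3 was 12th at 0.453 and Ecel1 28th at 0.378, closer than Sprr1a (107th), Basp1 (109th) and Marcksl1 (162nd). In uninjured cells, among 3282 genes, Gap43 was most like Stmn1 (0.326), Uchl1 (0.284), Ubb (0.279), Ppia (0.272) and Rps27a (0.269), and Basp1 was 13th at 0.242. In Uninjured 5 these correlations were 0.192 for Stmn1, 0.0282 for Uchl1, -0.0287 for Ubb, -0.0273 for Ppia and -0.0208 for Rps27a, so only Stmn1 was positive beyond 0.1 in every library. Cells with under 1% of UMIs from ribosomal protein mRNA had less Gap43 in Uninjured 1 to 4, as given further on. Such cells were kept for the injured and uninjured lists, and their part was not tested. The 2 lists of 5 share no gene. Of its injured list, Jpt1 rose from 98.3 to 607 CPM and Stmn2 from 1049 to 2445 CPM, while Tmsb10 did not pass the threshold (log2 fold change -0.23, edgeR adjusted p = 0.679), nor did Tuba1a (0.52, edgeR adjusted p = 0.0925). The uninjured values of Tmsb10 split: Uninjured 5 and 6 were at 3120 and 3672 CPM, and Uninjured 1 to 4 between 1055 and 1390 CPM. Its injured values, from 1547 to 1798 CPM, lay between these groups of libraries.

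Members were compared between cells with at least 2 UMIs of a subtype marker and the remaining cells of the same sample. Spp1, a marker of alpha RGCs, was held by 16, 8 and 34.5 cells of Injured 1, Injured 2 and Injured 3/4, the last being a mean of 2 libraries. In these cells Sprr1a was at 1411, 1754 and 2199 CPM, and in the remaining cells at 551, 882 and 498 CPM. Spp1 cells were higher in 3 of 3 samples, with a median log2 difference of 1.36, and 87.5%, 100% and 92.7% of them had a Sprr1a UMI. They were also deeper, with a median of 36421.5, 33442.5 and 34896 UMIs against 14298, 14468 and 12223, and the part of depth in this difference was not tested. Marcksl1 was lower in Spp1 cells of every injured sample, at 57.4 ± 5.84 CPM against 196 ± 31.0 CPM (SD, n = 3). In uninjured libraries only 31 cells held Spp1, and Gap43, Basp1, Marcks and Marcksl1 were lower in them in every sample that had such cells, with median log2 differences of -0.59, -0.73, -0.62 and -1.20.

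Opn4, which marks intrinsically photosensitive RGCs, was held by 16, 16 and 25.5 cells of the injured samples. Sprr1a was at 1156, 2080 and 811 CPM in them and at 598, 821 and 752 CPM in the remaining cells, so that Opn4 cells were higher in 3 of 3 samples, with a small difference in Injured 3/4. Opn4 cells were deeper where the difference was large, with a median of 19656.5 UMIs against 14553 in Injured 1 and 20474.5 against 14468 in Injured 2, and less so in Injured 3/4 (13592.2 against 12661), and the part of depth was not tested. Gap43 was lower in Opn4 cells (1983 ± 510 against 2519 ± 130 CPM, SD, n = 3) and so was Marcksl1 (68.0 ± 9.62 against 189 ± 21.5 CPM, SD, n = 3), both in every sample. Foxp2 cells, of the F-RGC group, had less Sprr1a in every injured sample, at 483 ± 107 CPM against 810.4 ± 176 CPM (SD, n = 3). Eomes, another marker of photosensitive RGCs, went with less Gap43 in every injured sample, at 1608 ± 339 CPM against 2518 ± 163 CPM (SD, n = 3), and less Marcksl1, with a median log2 difference of -1.14. Sprr1a was at 456 ± 452 CPM in Eomes cells against 790 ± 165 CPM (SD, n = 3) and higher in 1 of 3 samples, so it did not differ in the same direction with both markers of photosensitive RGCs. Cartpt, known from direction-selective RGCs, was held by 1072 of the 1683 uninjured cells and by 15, 19 and 16 cells of the injured samples, so at this limit it did not pick out a single subtype, and its cells are not the same group in both conditions. It went with more Basp1, Marcks and Marcksl1 in 6 of 6 uninjured libraries, with median log2 differences of 0.23, 0.28 and 0.57. Cartpt cells were also deeper in each of these libraries, and the part of depth was not tested. Their median was 37506 UMIs against 25799 in Uninjured 4 and 22123 against 21439.5 in Uninjured 6. In the injured samples Cartpt cells had less Gap43 in every sample, at 1734 ± 481 CPM against 2520.1 ± 165 CPM (SD, n = 3). Marcksl1 was also lower in them in every injured sample, at 121 ± 21.4 CPM against 183 ± 21.8 CPM (SD, n = 3), while Basp1 was higher in 1 of 3 and Marcks in 2 of 3. Subtype markers themselves can change after injury, so a marker may pick different cells in the 2 conditions.

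The other genes of these pathways were taken from 8 lists with 157 genes in all, of which 136 were tested. Of these, 51 were higher and 28 lower after injury at an adjusted p of 0.05, which is 58.1% past the threshold against 44% of all genes, with a median log2 fold change of 0.23 against -0.03. Of all genes tested, 21.3% were higher and 22.7% lower. The lists were chosen with earlier results of these data known, so nothing is read from these counts. Without Injured 3 and 4, 18 were lower. Differences between the lists were not tested. Shares past the threshold ran from 40.9% for actin monomers and turnover to 89.7% for regeneration-associated genes. Lipid-anchoring enzymes (41.7%) and protein kinase C and calmodulin (42.9%) were, like actin turnover, close to the 44% of all genes. Of 29 regeneration-associated genes tested, 25 were higher and 1 lower, and their median was 1.76. Of 34 growth cone filament proteins 13 were higher and 6 lower (median 0.32), and of 22 genes of actin monomers and turnover 6 and 3 (median 0.09). Of 21 genes of protein kinase C and calmodulin 2 were higher and 7 lower (median -0.39), and of 13 genes of PIP2 metabolism 2 and 6 (median -0.33). Of 12 lipid-anchoring enzymes 2 were higher and 3 lower (median 0.03), and of 3 further CRMP genes 1 and 1. Counts of the smaller lists depend on the analysis: over 27 alternatives, the counts of higher and lower genes changed by more than 1.5 times in 4 and 8 for actin monomers and turnover and in 4 and 5 for the lipid-anchoring enzymes, and the count of lower genes did so in 4 for PIP2 metabolism and in 8 for the CRMP genes.

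Among the further CRMP genes, Crmp1 lay between 87.3 and 117 CPM in uninjured libraries and between 262 and 279 CPM in injured samples, with a log2 fold change of 1.44 (SE 0.13, edgeR adjusted p = 3.46e-06). All injured samples were above all uninjured ones. Dpysl4 was lower, at 32.4 and 17.4 CPM on average (log2 fold change -0.92, edgeR adjusted p = 0.0104), and Dpysl2 did not pass the threshold (log2 fold change -0.58, edgeR adjusted p = 0.0672), though it passed in 7 of 27 alternatives. The CRMP genes thus did not change as 1 family. Without Injured 3 and 4 the adjusted p of Dpysl4 was 0.0526.

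The anchored membrane proteins are fixed by myristoyl and palmitoyl groups. Of the enzymes that add or remove these, the depalmitoylases Abhd17c (7.85 and 21.0 CPM, log2 fold change 1.42) and Abhd17b (55.3 and 80.5 CPM, 0.54) were higher, while Ppt1 fell by 0.49 on the log2 scale, the myristoyltransferase Nmt2 by 0.41 and Lypla1 by 0.33. The rise of Abhd17b had an edgeR adjusted p of 0.105 with cells thinned to 5000 UMIs and 0.0601 with similar libraries summed. The falls were close to the threshold as well: without Injured 3 and 4 the edgeR adjusted p was 0.0569 for Ppt1, 0.104 for Nmt2 and 0.0942 for Lypla1, without Injured 1 it was 0.0570 for Ppt1, and leaving out any of Uninjured 1 to 4 or Injured 1, 2 or 4 put Lypla1 between 0.0520 and 0.137. Among partners of calmodulin and protein kinase C, Nrgn, a calmodulin-binding relative of Gap43, was between 170 and 481 CPM in uninjured libraries and between 5.10 and 13.7 CPM in injured samples. The groups were far apart, and the log2 fold change was -4.97 (SE 0.49, edgeR adjusted p = 9.41e-06). Camk2a (67.0 and 17.4 CPM, log2 fold change -1.96) and the atypical kinase Prkcz (109 and 40.8 CPM, -1.43) were lower, and Camk2d (474 and 994 CPM, 1.07) and the calcineurin subunit Ppp3ca (490 and 798 CPM, 0.71) higher, Ppp3ca with an edgeR adjusted p of 0.0945 when similar libraries were summed.

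PIP2, the lipid that Marcks and Basp1 bind, is made by the Pip5k1 kinases and split by phospholipase C. Pip5k1b was between 23.2 and 35.0 CPM in uninjured libraries and between 136 and 206 CPM in injured samples, with a log2 fold change of 2.64 (SE 0.16, edgeR adjusted p = 1.89e-07). Pip5k1a was higher as well (log2 fold change 0.76), while Pip5k1c (51.1 and 23.1 CPM, -1.15), the phospholipase Plcb1 (327 and 145 CPM, -1.17) and Pip4k2b (-0.59) were lower. The fall of Pip4k2b had an edgeR adjusted p of 0.0886 with injured cells without mCherry alone and 0.0625 with similar libraries summed. The Pip5k1 kinases thus moved apart. Among actin regulators, Tmsb4x lay between 630 and 1752 CPM in uninjured libraries and between 2800 and 3246 CPM in injured samples (log2 fold change 1.60, SE 0.35, edgeR adjusted p = 0.00290, or 0.0861 with injured cells without mCherry alone). The uninjured values split, since Uninjured 5 and 6 were at 1619 and 1752 CPM and the other 4 at or below 704 CPM. Twf2 (17.6 and 45.2 CPM, 1.37) and Wdr1 (46.4 and 107 CPM, 1.21) were higher, and the severing factor Dstn (606 and 163 CPM, -1.89) and the kinase Tesk1 (-1.07) lower.

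Among filament proteins, Msn, which links actin to the membrane, was between 0.561 and 1.29 CPM before and between 24.9 and 35.2 CPM after injury. It is given without a fold or a test because its uninjured counts were low. Myh9 (10.7 and 48.8 CPM, 2.15) and Cttn (30.9 and 124 CPM, 2.01) were higher, and Add3 (103 and 41.5 CPM), Coro1a (-1.10) and Wasf3 (-0.92) lower. Of the regeneration-associated genes, Ecel1 was at 0.266 CPM before and 843 CPM after injury and Atf3 at 0.808 and 799 CPM, and both are given without a fold because of the uninjured counts. Tnfrsf12a rose from 3.66 to 491 CPM (log2 fold change 7.10) and Nrn1 was the exception that fell, from 1073 to 390 CPM (-1.46).

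**Figure D5:**
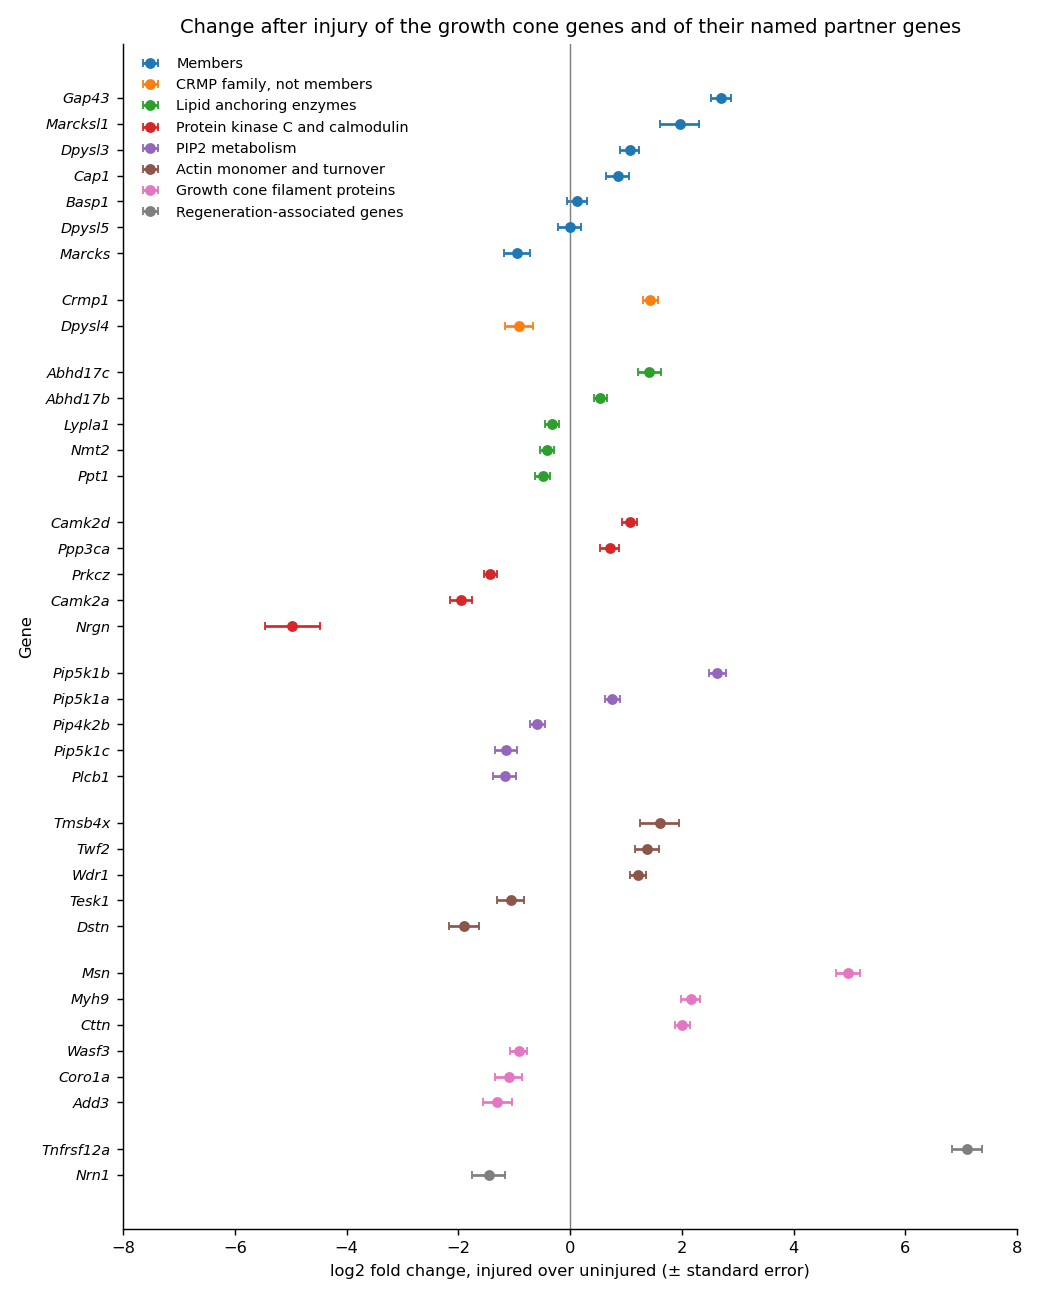
log2 fold change of injured over uninjured (x axis) for 7 of the 8 genes and for named partner genes of 7 lists (y axis); points are edgeR estimates and bars 1 standard error. Sprr1a, Ecel1 and Atf3 are left out because they are near 0 in uninjured libraries, and genes of each list lie on both sides of 0. The point of Msn rests on low uninjured levels of 0.561 to 1.29 CPM.

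Sprr1a is a gene of keratinised epithelium, so the other genes of that programme were counted. Of 22 further genes of the SPRR family and the cornified envelope, 17 had no UMI in any library and 2 were tested, Evpl, which was lower but close to the threshold (edgeR adjusted p = 0.0484), and Ppl, which did not pass. The number of lower genes in this list was other than 1 in 18 of 27 alternatives. Sprr1b, Sprr3, Ivl and Loricrin were at 0 in all libraries, and Sprr2g was at 0.0961 CPM in uninjured and 1.64 CPM in injured samples, beside 811 CPM of Sprr1a in the latter. Of 16 markers of keratinised and corneal epithelium, Krt5, Krt14, Krt6a, Ivl and Sprr1b were at 0 throughout. The summed level of this marker list was 49.5 ± 16.1 CPM (SD, n = 6) in uninjured and 111 ± 8.56 CPM (SD, n = 3) in injured samples, with Krt10 the most abundant gene before injury and Dsp after it. Dsp rose from 0.0973 to 64.1 CPM and Epcam from 0.0926 to 24.5 CPM, while Krt10 fell from 37.5 to 19.996 CPM, Krt1 from 6.43 to 2.69 CPM and Krt12 from 3.24 to 0.206 CPM. Dsp, a desmosome protein, and Epcam were picked out after their values had been seen. The part of the markers that rose in the level of Sprr1a was not tested.

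Markers of other retinal cells were summed as well, and their differences between the conditions were not tested. The ranges of the conditions overlapped for markers of Muller glia, of microglia and macrophages, of oligodendrocytes and Schwann cells, and of vascular cells. Summed levels of amacrine markers were 5849 CPM in uninjured and 668 CPM in injured samples, chiefly Calb2, which is also made by RGCs (5341 and 483 CPM with TMM factors). Muller glia markers were at 149 and 124 CPM, bipolar markers at 97.9 and 24.4 CPM, astrocyte markers at 30.8 and 11.05 CPM, microglia and macrophage markers at 11.1 and 20.4 CPM, oligodendrocyte and Schwann cell markers at 13.9 and 18.6 CPM, cone markers at 1.69 and 0.446 CPM and vascular markers at 2.68 and 2.61 CPM; 1 further list is not given here. RGC markers summed to 7008 and 4806 CPM. Without cells that held UMIs of 3 or more markers of another class, the injured level of Sprr1a was 530 CPM in place of 811 CPM. Such cells are also deeper cells by construction, and the part of either was not tested.

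In Injured 3 and Injured 4, which share cells and where most cells held mCherry, Sprr1a was at 905 and 775 CPM in the 453 and 397 cells with an mCherry UMI and at 122 and 88.9 CPM in the 74 and 74 cells without one. Gap43 was at 2488 and 2399 CPM with and at 1209 and 1475 CPM without it. Cells without mCherry were low for both genes in these libraries. In Injured 1, Sprr1a was at 735 CPM in 27 cells with and 632 CPM in 311 cells without mCherry, and in Injured 2 at 704 CPM in 41 and 979 CPM in 232 cells, so the difference in Sprr1a was not shared. Gap43 was higher with mCherry in these as well, at 3192 against 2481 CPM in Injured 1 and 2754 against 2552 CPM in Injured 2. Taking only injured cells without mCherry, the mean Sprr1a level was 616 CPM. Cells poor in ribosomal protein mRNA, under 1% of UMIs, were low in Sprr1a and Gap43 as well: 98 such cells of Injured 3 had 49.1 CPM Sprr1a against 951 CPM in the remaining cells, and 79 cells of Injured 4 had 74.5 against 794 CPM. Gap43 was at 1014 against 2576 CPM and at 1030.2 against 2495 CPM in the same comparison. Uninjured 1 to 4 held 12, 11, 23 and 53 such cells, and Gap43 was lower in them too, at 213, 216, 167 and 177 CPM against 549, 550.1, 418 and 406 CPM. Not all of the 8 genes were low in such cells: Dpysl3 and Dpysl5 were higher in them in each of these libraries, Dpysl5 at 94.5 against 47.0 CPM in Injured 3 and 85.8 against 43.2 CPM in Injured 4. What sets these cells apart was not tested.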

How the data were processed

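The values are raw UMI counts per gene and cell, deposited by the authors for 6 uninjured and 4 injured libraries after alignment with Cell Ranger 7.0.1 to mm39. The authors set limits of 500 genes, 20% mitochondrial UMIs and 150000 UMIs per cell, and every deposited cell lies within them; doublets were not called again. UMIs were summed per library, with Injured 3 and 4 averaged, and tested with edgeR 4.0.16 (quasi-likelihood, TMM scaling, filterByExpr, adjusted p threshold 0.05) in R 4.3.3, with limma 3.58.1 and DESeq2 1.42.0 as alternatives. Cells were thinned, correlated and plotted with Python 3.11.15, numpy 2.4.6, scipy 1.17.1, pandas 2.3.3 and matplotlib 3.10.9. The fit and the correlation were tested on simulated data. The members and lists were chosen with earlier results of these data known; 1 further list was not used here. Named partner genes are, for each list, those past the threshold with the 3 largest rises and the 3 largest falls among genes with a mean of at least 10 CPM over samples; genes most like Sprr1a (10) and Gap43 (5) are those with the highest median correlation. Genes with the lowest correlations, Dpysl2, Evpl, Ppl and the places of Atf3, Jun, Sox11 and Ecel1 among the correlations were added after their values had been seen. The Sprr1a classes were chosen after seeing the data.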

Additional observations from a re-analysis of the deposited data

Results flagged for a closer look

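Sprr1a in Uninjured 5, at 0.184 CPM, lay far from the other uninjured libraries, the nearest of which was at 0.0411 CPM; the value rests on 1 UMI. Atf3 in Uninjured 4, at 2.51 CPM, lay far from the others too, with the nearest at 0.906 CPM. In 76 groups of 6 libraries looked at, 2 held such a sample, where chance gives about 1 in 20 groups. The labels and the comparisons do not use mCherry, yet cells with an mCherry UMI made up 7.99% of Injured 1, 15.0% of Injured 2, 86.0% of Injured 3 and 84.3% of Injured 4, and 0 uninjured cells had one.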

How the results depend on the processing

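No log2 fold change of Gap43, Marcks, Marcksl1, Cap1, Dpysl3 or a named partner gene changed sign under any alternative. Correlations, shares of cells and spread were not checked for a change of sign. Cap1 with Dpysl5 in uninjured cells had a median of 0.0095 at 5000 UMIs and -0.074 at 8000 UMIs. Of the results that answer a comparison, 308 values under an alternative stayed within their limit and 13 did not. The limit was the spread between samples or, for counts, 1.5 times the reported count. Among the other results, 140 values lay beyond it, and 26 values of named partner genes were not past the threshold. Partner genes called lower numbered 28, and 17 when injured cells without mCherry were taken, 15 when similar libraries were summed and 18 without Injured 3 and 4, the last 2 of which leave fewer samples. The log2 fold change of Marcksl1 was 2.62 with libraries 1 to 4 of each condition alone, which leaves out Uninjured 5 and 6, and 2.63 when a replicate block by library number was added. Both fits also count Injured 3 and 4 as separate samples, so more than 1 choice changed at once. The labels do not say that equal numbers pair libraries. Correlations of matching numbers ran from -0.056 to 0.014 and those of other numbers from -0.067 to 0.117. The block gave 7782 genes called against 8230 without it. With few libraries, of which Injured 3 and 4 share cells, these values cannot exclude a pairing. With the block 7 of the 8 genes were past the threshold, against 6 without it, the further one being Dpysl5 at a log2 fold change of -0.32. This further call came from a fit that treats Injured 3 and 4 as separate, although they share 421 cell barcodes. The injured Sprr1a level was 530 CPM without cells that held markers of another class, 616 CPM without mCherry cells and 446 CPM after thinning. Its share of injured cells was 35.6% at full depth and 33.6% at 8000 UMIs, its Fano factor 36.7 at 8000 UMIs, and its correlation with Gap43 0.320 without thinning. For Gap43 in Sprr1a-high cells, a limit of 2 UMIs, an alternative chosen after seeing the data, gave 0.64. The cause of these moves was not tested, save that thinning removes counts by construction.

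Over all alternatives the log2 fold change lay between 2.50 and 2.79 for Gap43, -1.09 and -0.68 for Marcks, 1.60 and 2.63 for Marcksl1, 0.54 and 1.13 for Cap1, and 0.83 and 1.19 for Dpysl3, while Basp1 (-0.04 to 0.29) and Dpysl5 (-0.32 to 0.21) took both signs. Genes called ran from 4181 with similar libraries summed to 8249 with limma-voom. Requiring 10 counts in every sample left 7 of the 8 genes, without Sprr1a. Of 860 values of the 32 named partner genes, 834 were past the threshold and 26 were not; 13 of the 26 were Lypla1. Leaving out each library for co-expression and spread was added after seeing the data.

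The limits are depth and number: 3 injured samples, one of them a mean of libraries that share cells; uninjured cells deeper than injured ones; Sprr1a resting on 2 uninjured UMIs. Pooled retinas, sex and library preparation cannot be told apart from sample. UMIs of mCherry occurred in injured libraries only, so a vector that carried it could not be told apart from the injury. A level of mRNA says nothing of the protein, which was not measured.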
